A study of Mus musculus with 8 samples.

Results

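Zic and Sall proteins are zinc finger transcription factors that act in early embryos, in the neural plate and in stem cells. The genes followed here are *Zic1*, *Zic2*, *Zic4*, *Zic5*, *Sall1*, *Sall2*, *Sall3* and *Sall4*. They were chosen by name, as every probe that is not a control and that the scanner output assigns to one of these 8 symbols, which gave 12 of the 55681 probes on the array. *Zic1* and *Zic4* had 2 probes each, *Sall4* had 3 and each of the others had 1. RNA came from E14Tg2A.4 mouse embryonic stem (ES) cells that were either left untreated (4 arrays) or were collected after 72 h of retinoic acid (RA) stimulation (4 arrays). The study's methods add 1 µM all trans RA to medium that lacks leukemia inhibitory factor, the cytokine that keeps ES cells self-renewing, so the RA arrays differ from the untreated arrays in the medium as well as in RA, and the effects of RA and of the medium cannot be told apart. Both conditions are cultures of the same line, and each array received the labelled RNA of 1 of 4 biological replicates.

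Zic proteins bind DNA through a row of C2H2 zinc fingers that resembles that of Gli proteins, the effectors of Hedgehog signalling. They are known for roles in neural plate patterning, cerebellum and neural crest, and *Zic2* is also expressed in pluripotent cells. Sall proteins are larger factors with pairs of zinc fingers spread along the protein, and they recruit the NuRD complex, which removes acetyl groups from histones and remodels nucleosomes. *Sall4* belongs to the network that holds ES cells in the pluripotent state, together with *Pou5f1* and *Nanog*. RA enters the nucleus and binds receptors that sit on DNA, and it drives ES cells to differentiate.

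The sequences of 4 probes are shown, both *Zic1* probes because they changed in opposite directions, and 2 *Sall4* probes because their assigned transcripts differ in number. The *Sall4* probe A_51_P145260 is assigned to 3 RefSeq transcripts and A_55_P2173546 to only 1 of these. All sequences are as the scanner output gives them, 5′ to 3′, and positions are on mm9. The *Zic1* probe A_51_P194230 lies at chr9:91255425-91255484 on the minus strand, and the first 30 of its 60 bases are shown. The *Zic1* probe A_55_P2009774 lies 1876 bases away at chr9:91257301-91257360, further from the end of the transcript. Its capitals mark TGC at both ends of TGCNNNNNNTGC, from base 8 to base 19 of the probe, a pair of cysteine codons with the spacing found in C2H2 zinc fingers. This motif, searched on both strands, is in 2.22% of all probes of 60 bases, and among the 12 Zic and Sall probes in 1. The *Sall4* probe A_51_P145260 lies at chr2:168578172-168578231 and A_55_P2173546 at chr2:168580437-168580496, both on the minus strand. In the second one the capitals mark the ends of CATNNNNNNNNNCAC, from base 29 to base 43, a pair of histidine codons of a zinc finger. On both strands this motif is in 3.1% of all probes and in 2 of the 12.
Zic1 A_51_P194230 (bases 1 to 30): atccgcatgtaaagggtctggtttattcat
Zic1 A_55_P2009774: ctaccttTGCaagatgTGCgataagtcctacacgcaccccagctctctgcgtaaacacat
Sall4 A_51_P145260: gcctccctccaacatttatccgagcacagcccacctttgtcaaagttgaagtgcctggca
Sall4 A_55_P2173546: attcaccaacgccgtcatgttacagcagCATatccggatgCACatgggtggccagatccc

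All levels below are log2 intensities relative to the 75th percentile of the same array, so a level of 0 is that percentile, and differences are RA minus untreated on the same scale. Levels of different probes are not compared, because probes differ in how strongly they bind. A probe was called when its adjusted p from limma (Benjamini-Hochberg over all 55681 probes) was under 0.05 and its change was over 1.5-fold. By this rule 3 of the 12 probes were higher after RA, where 12.9% of all probes were, and 7 were lower, where 21.6% of all probes were. The counts over all probes depend on the scaling, with 7196 higher and 12044 lower here, 8152 and 8704 with quantile normalization and 6275 and 6583 on the authors' processed values. The 4 RA arrays lay wholly above the 4 untreated arrays for 3 of the 12 probes (13.9% of all probes) and wholly below them for 7 (23.8% of all probes). The median change over the 12 probes was -1.02, and over all probes it was -0.28. Under quantile normalization the median of all probes was -0.0026 and the 12 probes kept the direction of their change. The Zic genes had 2 probes called higher, 3 called lower and 1 not called, and the Sall genes 1 called higher, 4 called lower and 1 not called. Of the 12 probes, 9 were well above background on all 8 arrays. The others were both *Zic4* probes and the *Zic5* probe.

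**Figure D1:**
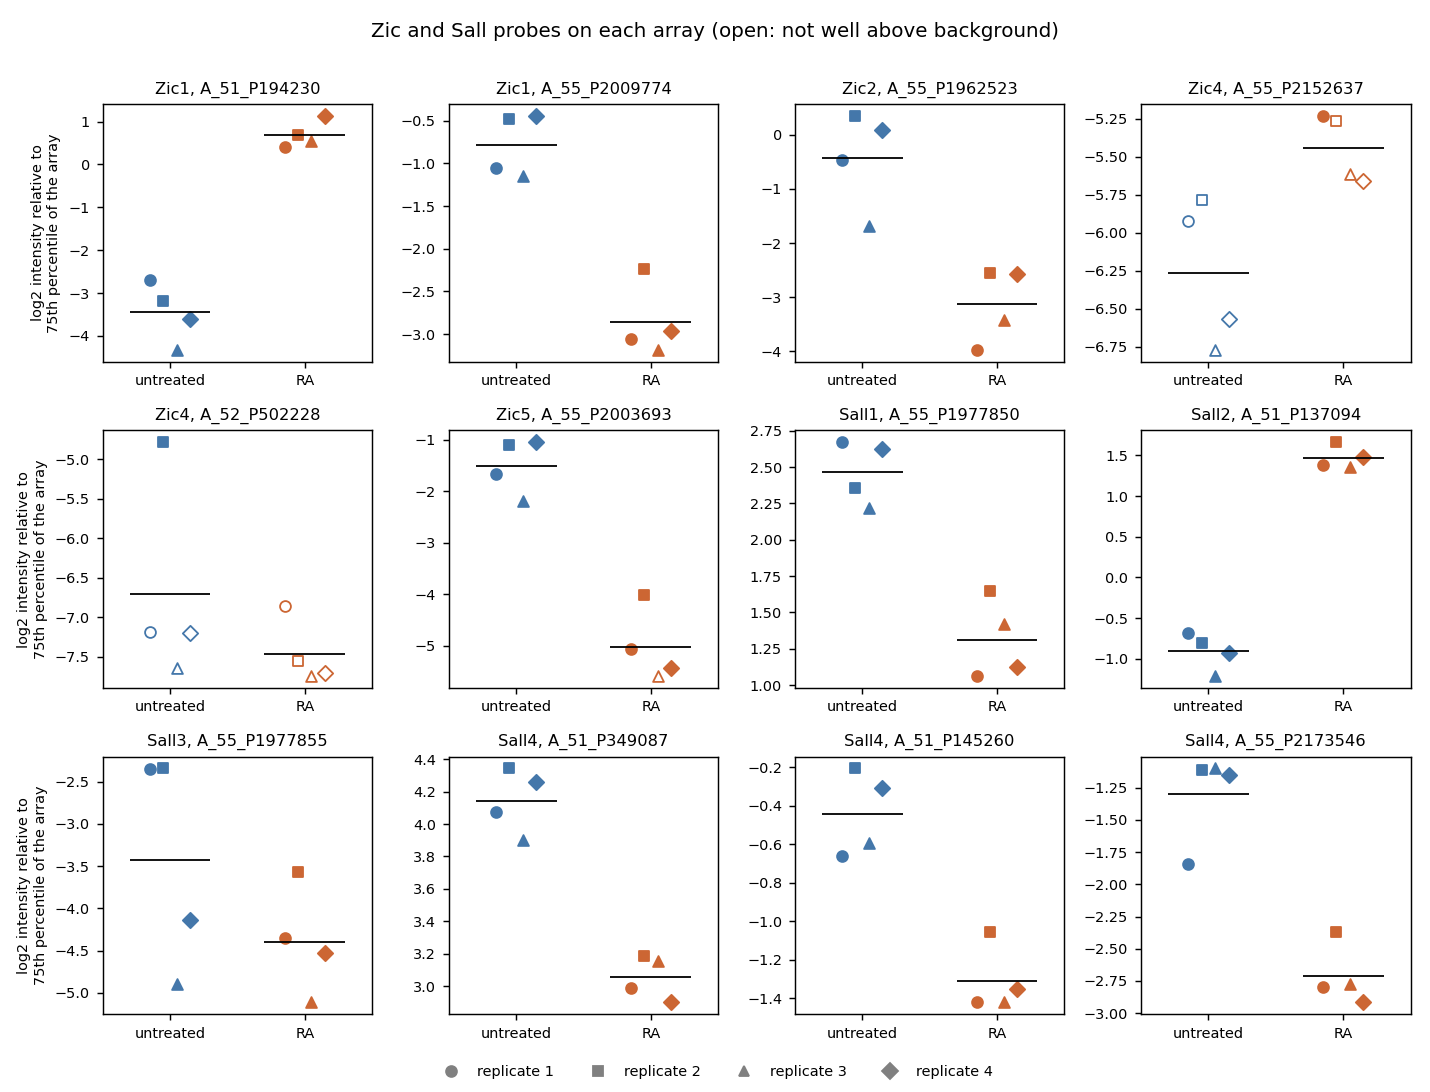
Each panel shows 1 probe, with the log2 intensity relative to the 75th percentile of the array on the vertical axis (ranges differ between panels), the 4 untreated arrays in blue, the 4 RA arrays in orange, marker shapes for the replicate numbers and a line at the mean. Open markers are arrays on which the probe was not well above background, and the conditions overlap for the second *Zic4* probe and for *Sall3*.

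The labels name only the treatment, so lists of marker genes were used to describe the cells of each condition. All 7 pluripotency markers listed (*Pou5f1* and *Nanog* among them) were called lower, and their summed linear intensity, in units of the 75th percentile, was between 428 and 601 on untreated and between 42.5 and 115 on RA arrays. Of 7 neural markers 2 were called higher, 1 lower and 4 were not called (summed level 6.08 to 9.67 untreated, 10.5 to 11.9 after RA). Of 8 extraembryonic endoderm markers 7 were called higher (9.16 to 25.0 untreated, 50.9 to 77.6 after RA), and of 6 mesoderm markers 2 were called higher and 2 lower (0.25 to 0.58 untreated, 0.71 to 2.39 after RA). Of the 2 called higher, *Hand1* was well above background on 3 untreated arrays and *Meox1* on 1. The 2 lower calls were *Mixl1*, which was well above background on no array and was not called with quantile scaling, normexp or the authors' values, and *Mesp1*, which was not called on the authors' values. Of 6 markers of fibroblasts 5 were called higher and 1 was not called (1.15 to 2.09 untreated, 21.1 to 38.6 after RA). The part of such cells in the changes of the Zic and Sall genes was not tested. RNA of whole cultures cannot tell a change in the share of expressing cells from a change in RNA per cell.

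*Zic1*, which acts in the dorsal neural tube, in cerebellar progenitors and at the border of the neural plate, gave opposite answers with its 2 probes. With A_51_P194230 the levels were -2.70, -3.17, -4.32 and -3.60 on untreated arrays 1 to 4 and 0.40, 0.69, 0.54 and 1.13 on RA arrays 1 to 4. Every RA array was far above every untreated array. The change was 4.14 (SE 0.34, adjusted p = 2.91e-05 by limma), a 17.6-fold increase and the largest change of the 12 probes in either direction. It was 3.28 with normexp background correction and 3.37 on the authors' processed values.

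With A_55_P2009774 the levels were -1.06, -0.47, -1.15 and -0.44 on the untreated arrays and -3.05, -2.24, -3.19 and -2.97 on the RA arrays. Here every RA array was below every untreated array. The change was -2.08 (SE 0.26, adjusted p = 0.000311 by limma), a 4.23-fold decrease. Both probes were well above background on all 8 arrays.

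The gap between the *Zic1* probes was examined within each array, where the scaling of the array drops out. The log2 value of A_51_P194230 minus that of A_55_P2009774 was between -3.17 and -1.64 on the untreated arrays and between 2.93 and 4.10 on the RA arrays. The shift was 6.22 with an exact two-sided permutation p of 0.0286, the smallest that 4 against 4 arrays allow (adjusted p = 0.0571 over the 4 probe pairs tested). Within replicate numbers the smallest possible p is 0.125, and that was its value. The shift was 4.96 with normexp and 4.94 on the authors' values. The array assigns both probes to the same RefSeq transcript of *Zic1*, on the same strand.

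The *Zic1* probe that fell covers zinc finger codons, a stretch that is similar between Zic genes, and the probes of *Zic2* and *Zic5* fell on the same arrays. Over the 8 arrays, with each probe centred on its untreated mean, the root mean square distance of A_55_P2009774 was 0.66 to the *Zic2* probe and 1.05 to *Zic5*, and it was 4.43 to the other *Zic1* probe. It was also close to a *Sall4* probe (A_55_P2173546, 0.55) and to *Sall1* (0.72). Whether RNA of other Zic genes binds this probe was not tested, and transcript sequences of those genes were not used here.

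**Figure D2:**
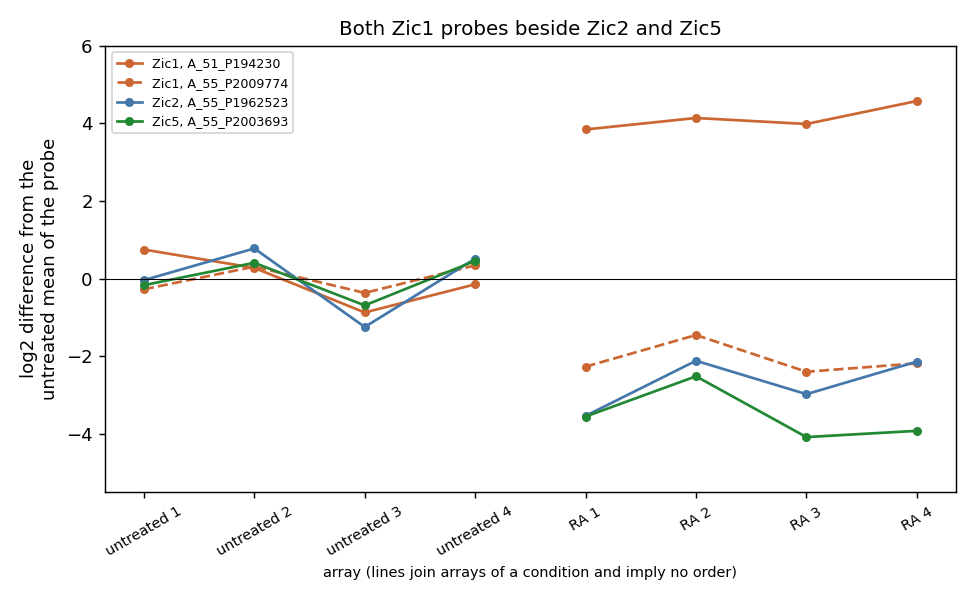
The vertical axis gives each probe's log2 value minus its untreated mean, the horizontal axis the 8 arrays, and lines join arrays of a condition without implying an order. After RA one *Zic1* probe lies about 4.14 above its untreated mean, while the other *Zic1* probe (dashed), *Zic2* and *Zic5* all lie below theirs.

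*Zic2*, a factor needed for forebrain development and neural tube closure, was detected on all arrays. Its levels with A_55_P1962523 (chr14:122879296-122879355, plus strand) were -0.47, 0.35, -1.68 and 0.08 in untreated cells and -3.97, -2.55, -3.41 and -2.57 after RA. The conditions did not overlap, although untreated array 3 lay well below the other untreated arrays. The change was -2.70 (SE 0.48, adjusted p = 0.00226 by limma), a 6.48-fold decrease. On the authors' values it was -2.06.

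*Zic5*, the neighbour of *Zic2* and a gene with a role in neural crest, was lower as well. Its levels with A_55_P2003693 (chr14:122858394-122858453, minus strand) were -1.68, -1.10, -2.20 and -1.05 in untreated cells and -5.06, -4.03, -5.59 and -5.43 after RA. The change was -3.52 (SE 0.39, adjusted p = 0.000142 by limma), with no overlap, an 11.5-fold decrease. RA array 3 was not well above background, and the change was -2.06 with normexp background correction and -1.90 on the authors' processed values. The RefSeq genes *Zic5* and *Zic2* lie 9726 bases apart on chromosome 14 of GRCm38.p6, read away from each other, and their probes differed from each other by a root mean square distance of 0.79.

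*Zic4* sits beside *Zic1*, and the RefSeq spans of the 2 genes overlap by 138 bases at their starts. Its transcript was at or below the detection limit. A_55_P2152637 (chr9:91282924-91282983, plus strand) gave -5.92, -5.78, -6.77 and -6.57 in untreated cells and -5.23, -5.27, -5.61 and -5.66 after RA, and only RA array 1 was well above background. The fitted change of 0.82 (SE 0.25, adjusted p = 0.0295 by limma) was called. No fold is given, because no untreated array and 1 RA array measured this probe above background. The call was lost without untreated array 3 or 4 or RA array 1 or 2 (adjusted p up to 0.0786), and with normexp background correction the change was -0.05. On the authors' processed values the change was 0.17 and was not called.

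The other *Zic4* probe, A_52_P502228 (chr9:91283991-91284050, plus strand), gave -7.18, -4.79, -7.65 and -7.20 in untreated cells and -6.86, -7.55, -7.74 and -7.70 after RA. Untreated array 2 stood apart and was the only array well above background. The fitted change was -0.76 (SE 0.58, adjusted p = 0.296 by limma), and no fold is given. So *Zic4* was near background in both conditions, while its neighbour *Zic1* had a probe that rose 17.6-fold.

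*Sall4*, a core pluripotency factor that works with the products of *Pou5f1* and *Nanog*, was lower after RA with all 3 probes. A_51_P349087 (chr2:168574333-168574392) gave 4.07, 4.34, 3.90 and 4.26 in untreated cells and 2.99, 3.19, 3.16 and 2.90 after RA. The replicates of each condition lay close together and the conditions were well apart. The change was -1.09 (SE 0.15, adjusted p = 0.000581 by limma), a 2.12-fold decrease.

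A_51_P145260 gave -0.66, -0.21, -0.59 and -0.30 in untreated cells and -1.42, -1.05, -1.42 and -1.35 after RA, a change of -0.87 (SE 0.17, adjusted p = 0.00300 by limma). A_55_P2173546 gave -1.84, -1.11, -1.10 and -1.15 in untreated cells and -2.79, -2.37, -2.78 and -2.92 after RA, a change of -1.41 (SE 0.21, adjusted p = 0.000871 by limma). Neither probe had an RA array within the untreated range. In fold terms the decreases were 1.83-fold and 2.66-fold.

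The *Sall4* probes differ in the transcripts they are assigned to. A_51_P349087 and A_51_P145260 match 3 RefSeq transcripts of the gene, and A_55_P2173546, with the zinc finger codons shown above, matches 1 of those 3. Within arrays, A_51_P145260 minus A_55_P2173546 was between 0.51 and 1.18 in untreated cells and between 1.32 and 1.56 after RA. This was a shift of 0.54 with an exact two-sided permutation p of 0.0286 (adjusted p = 0.0571 over the 4 pairs), and it fell to 0.24 (exact permutation p = 0.0857) on the authors' values. The other *Sall4* pairs shifted by -0.22 (A_51_P349087 minus A_51_P145260) and 0.33 (A_51_P349087 minus A_55_P2173546), with exact permutation p of 0.114 and 0.171 (adjusted 0.152 and 0.171). After adjustment over 4 pairs no p was under 0.05. The fully separated *Zic1* pair could not reach that value on its own, because its exact permutation p was already the smallest possible.

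*Sall1*, a regulator of kidney development, was called lower. Its levels with A_55_P1977850 (chr8:91551278-91551337, minus strand) were 2.67, 2.36, 2.22 and 2.63 in untreated cells and 1.06, 1.64, 1.42 and 1.12 after RA. The conditions did not overlap, and the change was -1.16 (SE 0.19, adjusted p = 0.00118 by limma), a 2.23-fold decrease. Its profile over the arrays was near that of the *Sall4* probe A_51_P349087, at a root mean square distance of 0.18.

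*Sall2*, which is linked to growth arrest and eye development, was the Sall gene that rose. Its levels with A_51_P137094 (chr14:52930994-52931053, minus strand) were -0.69, -0.80, -1.21 and -0.93 in untreated cells and 1.38, 1.66, 1.36 and 1.48 after RA. The RA arrays lay close together and all above every untreated array. The change was 2.38 (SE 0.16, adjusted p = 1.21e-05 by limma), a 5.20-fold increase, and the smallest adjusted p of the 12 probes.

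*Sall3*, a relative of *Sall1* with a role in cranial nerve development, did not pass the test. Its levels with A_55_P1977855 (chr18:81163136-81163195, minus strand) were -2.35, -2.34, -4.89 and -4.14 in untreated cells and -4.36, -3.57, -5.11 and -4.53 after RA. The untreated arrays fell into a higher pair and a lower pair, and the lower pair overlapped the RA arrays. The change was -0.96 (SE 0.61, adjusted p = 0.221 by limma), with a 95% interval from -2.34 to 0.42. It was -0.60 without untreated array 1 or 2, -1.45 without untreated array 3 and -0.37 on the authors' values, and it was called in none of these.

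**Figure D3:**
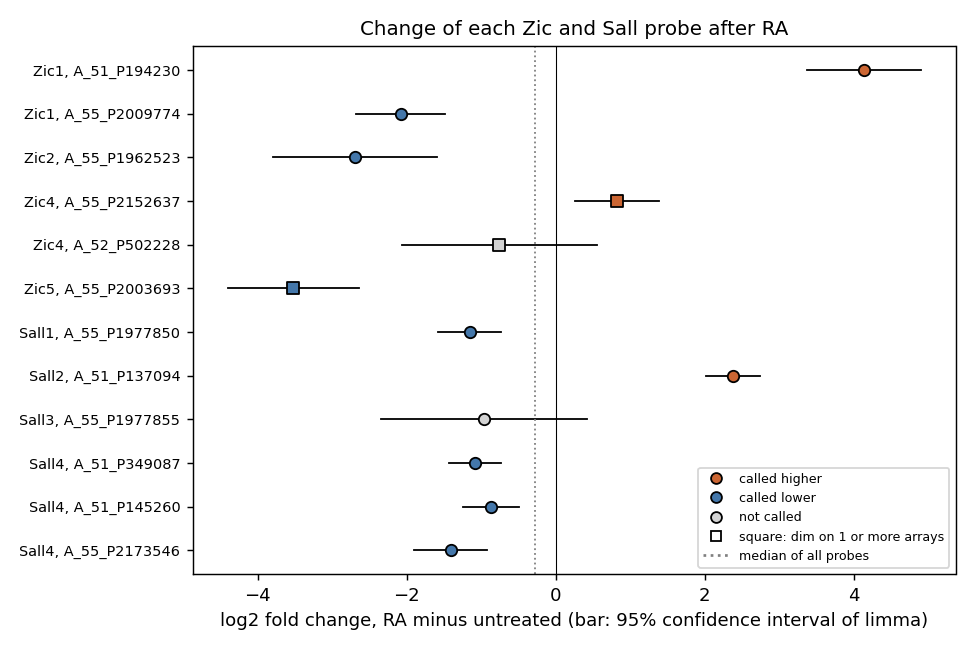
The horizontal axis gives the log2 fold change of each probe, RA minus untreated, with bars for the 95% confidence interval of limma. Orange probes were called higher, blue lower and grey were not called, squares mark probes dim on at least 1 array, and the dotted line is the median of all probes at -0.28.

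In untreated cells, 5 of the 7 probes called lower after RA also differed between the slides. Untreated arrays 1 and 3 were on slide 1 and arrays 2 and 4 on slide 2, each slide with 2 RA arrays. Both slide 1 arrays were below both slide 2 arrays for these 5 of the 12 probes (*Zic1* A_55_P2009774, *Zic2*, *Zic5* and the *Sall4* probes A_51_P349087 and A_51_P145260), where 11.4% of all probes showed this. For *Zic2* the untreated means were -1.07 on slide 1 and 0.22 on slide 2. With the slide as a block the same 10 probes were called. Within slides, at 2 arrays against 2, *Zic2* was -2.20 on slide 1 and -3.20 on slide 2 (adjusted p = 0.0658 and 0.0044 by limma). *Sall1* was -1.35 on slide 1 and -0.96 on slide 2 (adjusted p = 0.0337 and 0.0768 by limma). The *Sall4* probe A_51_P349087 was -1.04 on slide 1 and -1.13 on slide 2 (adjusted p = 0.0530 and 0.0407 by limma). The *Sall4* probe A_51_P145260 was -0.76 on slide 1 and -0.98 on slide 2 (adjusted p = 0.115 and 0.0745 by limma). The *Zic4* probe A_55_P2152637 was called on neither slide (0.90 and 0.74, adjusted p = 0.179 and 0.238 by limma). Both *Zic1* probes, *Zic5*, *Sall2* and the *Sall4* probe A_55_P2173546 were called on each slide, the last with -1.38 (adjusted p = 0.0491 by limma) and -1.44 (adjusted p = 0.0244).

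For each gene with a probe well above background on all arrays, the profiles of all other such genes were searched for the nearest, over the 8 arrays and 16461 probes. *Zic1*, by A_51_P194230, was nearest to *Spsb4* (root mean square distance 0.31 on the log2 scale), *Zic2* to *Kcnh3* (0.39) and *Txlng* (0.43). *Sall1* was nearest to *Ece2* (0.089) and *Cdkl4* (0.10), and *Sall2* to *Ncs1* (0.14) and *Gsk3b* (0.17). *Sall4*, by A_51_P349087, was nearest to *Ddx49* (0.022) and *Med20* (0.063), and *Sall3* to *Ddx17* (0.48) and *Plcb4* (0.48). These are the nearest of many candidates and say nothing of shared control.

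Among relatives of the Zic genes, 3 of 6 Gli and Glis genes were called higher, 1 lower and 2 were not called, with a median change of 0.58. Over all probes 12.9% were called higher and 21.6% lower. Genes of this list, of the lists below and of the marker lists were each taken at their brightest probe. The shares over all probes, dim ones included, are therefore not a like comparison for the counts of these lists. *Gli3*, the main repressor of the Hedgehog pathway, rose by 2.61 (SE 0.18, adjusted p = 1.28e-05 by limma). *Gli1*, a target and activator of that pathway, was lower with a change of -2.19 (SE 0.38, adjusted p = 0.00194 by limma). *Glis2* changed by 0.97 and *Glis3* by 1.49, the latter well above background on 1 untreated array only and not called with normexp (0.23) or on the authors' values (0.46).

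Of the 13 subunits of NuRD, the complex that Sall proteins recruit, 5 were called higher, 1 lower and 7 were not called, and the median was 0.17. *Mbd2*, a methyl-CpG binding subunit, changed by 2.69 and the remodelling ATPase *Chd3* by 2.07. *Mta1* (1.72), *Gatad2a* (1.27) and *Rbbp7* (1.08) were the others called higher. The deacetylase *Hdac2* was called lower at -0.79. Its partner *Hdac1*, with a change of 0.00084 (SE 0.16), and the ATPase *Chd4*, with 0.17 (SE 0.13), were not called.

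Of 10 genes of the neural plate border and neural crest, where Zic factors act, 9 were found on the array by symbol. *Tfap2a* was not found under that symbol, and other symbols for it were not searched. Of the 9 genes, 5 were called higher, 1 lower and 3 were not called, with a median of 2.03. *Pax3* changed by 4.19, *Msx2* by 3.89, *Zeb2* by 3.47, *Msx1* by 3.20 and *Snai2* by 2.03. Of these, *Pax3* was well above background on only 3 of the 4 untreated arrays. *Foxd3*, which is expressed in ES cells as well as in the crest, was called lower with -5.92 (SE 0.63, adjusted p = 0.000121 by limma) and was well above background on 2 of the 4 RA arrays. *Pax7* (0.91, well above background on 1 untreated array) and *Dlx5* (0.76) were not called but passed under quantile normalization. *Dlx5* also passed with the replicate number as a block (adjusted p = 0.0174 by limma) and with dim probes left out (adjusted p = 0.0435), and *Sox10*, at 0.37, was not called.

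**Figure D4:**
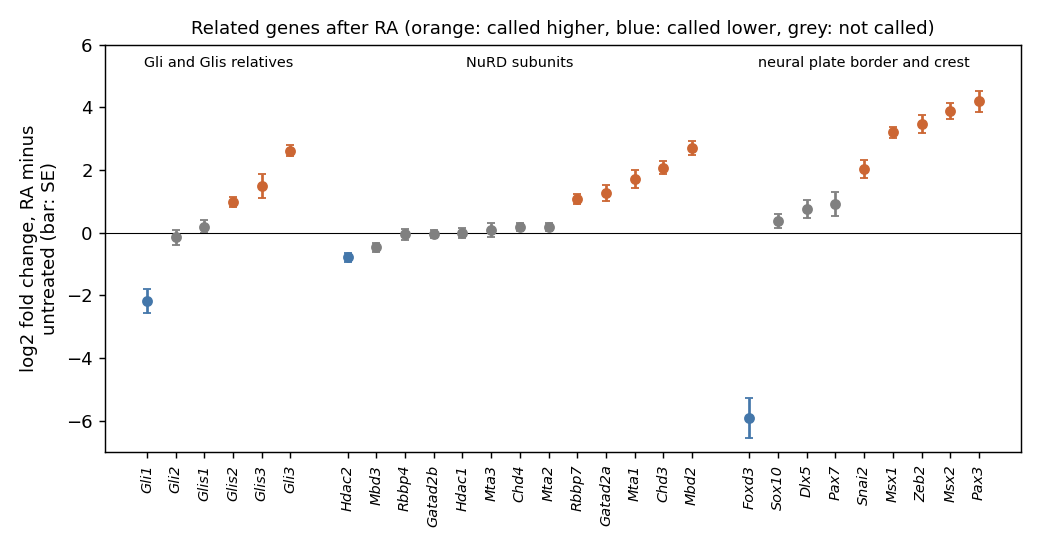
The vertical axis gives the log2 fold change, RA minus untreated, with the SE of limma as bars, for Gli and Glis genes, NuRD subunits and genes of the neural plate border and crest, sorted within each list. *Gli3*, *Mbd2* and *Pax3* have the largest increases of their lists, and *Gli1*, *Hdac2* and *Foxd3* the largest decreases.

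RefSeq windows of the 250 bases before a transcript start were at hand for 5 of the 8 genes (8 windows, GRCm38.p6). Those of *Sall2*, which rose, and *Zic5*, which fell, are shown, both on the minus strand. The capitals mark TGACCT, which is AGGTCA on the other strand, the hexamer that retinoid receptors bind in pairs.
Sall2 upstream, chr14:52328671-52328920: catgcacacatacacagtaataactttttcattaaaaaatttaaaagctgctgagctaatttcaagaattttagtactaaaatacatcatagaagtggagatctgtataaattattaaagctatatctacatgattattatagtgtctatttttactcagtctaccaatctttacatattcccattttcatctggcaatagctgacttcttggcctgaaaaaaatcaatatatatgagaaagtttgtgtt
Zic5 upstream, chr14:122465659-122465908: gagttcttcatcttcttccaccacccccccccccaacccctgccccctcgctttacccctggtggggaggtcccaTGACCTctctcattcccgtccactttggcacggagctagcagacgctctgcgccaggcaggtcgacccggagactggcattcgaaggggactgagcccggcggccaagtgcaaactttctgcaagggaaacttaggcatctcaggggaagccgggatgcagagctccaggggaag

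The window of *Sall2* was 28% G and C with 0 CpG dinucleotides, and that of *Zic5* 62.4% with 11, beside medians of 52.4% and 6 over 32851 windows. *Sall2* has another start whose window was 64.4% G and C with 6 CpG, and its probe does not tell which start was used. The window of *Zic1* was 66.0% G and C with 27 CpG and that of *Zic4* 44.4% with 4. On both strands AGGTCA was in 1 of the 8 windows, that of *Zic5*, and in 14% of all windows. The pair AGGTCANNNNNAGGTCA was in none of the 8 and in 0.00913% of all. GGGCGG, the core of the site of Sp1-type factors, was in the window of *Zic1* and in 2 of the 3 windows of *Sall1*, and in 32.7% of all windows. These are matches of letters in short windows.

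**Figure D5:**
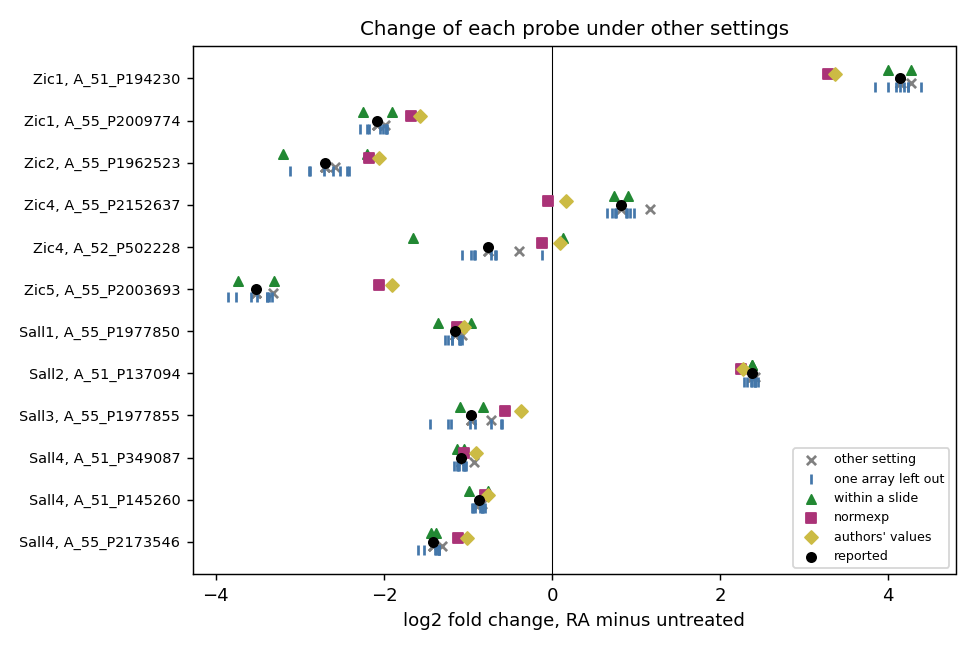
The horizontal axis gives the log2 fold change of each probe, RA minus untreated, as reported (black) and under every other setting tried. Only the 2 *Zic4* probes cross 0, and the *Zic5* probe moves from -3.52 to -1.90 on the authors' values.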

How the data were processed

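RNA of E14Tg2A.4 ES cells (4 untreated and 4 RA-treated cultures) was labelled with Cy3 and hybridized to Agilent 1-colour mouse arrays. The authors deposited the Feature Extraction (version 10.7.3.1) scanner output, which holds a background-corrected, dye-normalized processed intensity per spot, together with their own further processed table on the log2 scale, made by steps not given in the sources used here. The columns of that table had medians between 6.81 and 6.83, and their changes followed those of the scanner values with a slope of 0.83 over 27493 probes, so its direction is settled and its background treatment unknown.

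In R (version 4.3.3) processed intensities were put on the log2 scale, each array's 75th percentile over the 59305 spots that are not controls was subtracted, and spots of a probe were averaged. Control spots and outlier spots (124 to 145 per array) were left out. Between 56.7% and 62.7% of spots were well above background and 0 were saturated, and the number of arrays limits the precision. Each probe was fitted in limma (version 3.58.1, lmFit and eBayes), a step tested on simulated data, with Benjamini-Hochberg adjustment. The study's thresholds of 0.05 and 1.5-fold were used. No fold is given for a probe dim on all arrays of a condition. Differences between probes of 1 gene were tested by exact permutation over 70 arrangements. Gene names and mm9 positions are those of the array, with promoter windows from RefSeq.

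The labels number replicates 1 to 4 in both conditions. Deviations of same-numbered arrays correlated at 0.19, 0.19, 0.10 and 0.15 (highest across numbers 0.14), so a fit with the replicate number as a block was run beside the reported fit, which has none. The pairing rests on this check alone. The arrays of replicate 1 shared a slide, as did those of replicate 2, while replicates 3 and 4 were split across slides. The check therefore cannot tell a pairing of replicates from a shared slide. Named genes are the 8 members, the called genes and the extremes of the 3 lists of related genes, and the 2 genes with the nearest profile, of which 1 is not reported here. *Hdac1*, *Chd4*, *Pax7*, *Dlx5*, *Sox10* and the named cell type markers lie outside this rule and were picked with their values known. A list gene was taken at its probe with the highest mean. The members and lists were chosen with earlier results of these data known. Alternatives were quantile scaling, normexp (offset 50), the authors' values, a filter on dim probes, slide and replicate blocks, single slides, and leaving out each array.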

Additional observations from a re-analysis of the deposited data

Results flagged for a closer look

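In the 24 groups of 4 arrays (12 probes in 2 conditions), 2 had a single array far from the other 3, where chance gives 1.2 such groups. For the *Zic4* probe A_52_P502228, untreated array 2 was at -4.79 (log2, relative to the 75th percentile) and the others between -7.65 and -7.18. It was the only array on which that probe was well above background. For the *Sall4* probe A_55_P2173546, untreated array 1 was at -1.84 and the others between -1.15 and -1.10.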

How the results depend on the processing

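With quantile scaling, normexp, the authors' values, the filter on dim probes, the slide block and the replicate block, 7 member probes were called lower each time, and 2 or 3 higher, the third being *Zic4* A_55_P2152637. Leaving out 1 array at a time gave 2 to 3 higher, 7 to 7 lower and 17325 to 19957 called probes of the whole array. The replicate block, as a paired analysis, called 19384 probes beside 19240 without it and changed no call of a member. It gave the shift between the *Zic1* probes as 6.22 and between the *Sall4* probes A_51_P145260 and A_55_P2173546 as 0.54, both with an exact permutation p of 0.125, the smallest possible there. The latter was 0.32 with normexp (exact permutation p = 0.0571) and 0.24 on the authors' values. It ranged from 0.42 to 0.65 without 1 array, with an exact permutation p of 0.0571 without any single RA array. The shift between A_51_P349087 and A_51_P145260 ranged from -0.28 to -0.17 without 1 array (without RA array 3 the exact permutation p was 0.0286), and between the *Zic1* probes from 6.04 to 6.56.

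Within slide 1 there were 10554 calls over all probes, with 4 member probes lower, and within slide 2 there were 9417, with 5 lower, each on 2 arrays a condition. *Zic4* A_55_P2152637 reversed to -0.052 with normexp, and A_52_P502228 reversed to 0.09 on the authors' values and 0.14 within slide 1. The cause was not tested. Over all probes, higher and lower calls were 7196 and 12044 as reported, 8152 and 8704 with quantile scaling, and 6275 and 6583 on the authors' values. Signal over background limits *Zic4*, *Zic5*, *Glis3*, *Foxd3*, *Pax3* and *Pax7*.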
